A study of Mus musculus with 2 samples.

Results

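Integrin and other matrix receptor genes were examined in cultured mouse retinal pigment epithelial cells (RPE), untreated or exposed to interferon gamma (IFNg). The 32 genes encode 12 integrin alpha chains, 6 integrin beta chains, 4 syndecans, 4 glypicans, the discoidin domain receptors Ddr1 and Ddr2, the hyaluronan receptor Cd44, dystroglycan (Dag1) and the tetraspanins Cd151 and Cd9. They were listed by name and not chosen by their values in this report, although earlier results of these arrays were known. All probe sets whose annotation names 1 of these genes alone were taken, which gave 85 of 45037 probe sets and 31 of 18193 genes, and Itga11 had no such probe set. The cultures were pigment epithelial cells grown for 14 days in medium with 20% FBS and described as 95% cytokeratin positive. One culture was left untreated and the other received IFNg at 100 U/ml for 24 h, and both spent a night without serum before the RNA was taken. The sources used here give neither the mouse strain nor the animals' age, nor how many animals were pooled.

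Cells hold on to the extracellular matrix through receptors that span the membrane or are anchored in it. An integrin is a pair of 1 alpha and 1 beta chain, and the pair decides which matrix protein is bound. Syndecans and glypicans are core proteins that carry heparan sulfate chains and act as co-receptors for matrix proteins and growth factors, discoidin domain receptors are kinases switched on by collagen, and tetraspanins are small membrane proteins that gather integrins into clusters. The RPE rests with its basal side on the laminins and collagens of Bruch's membrane, and its attachment there depends on integrins.

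Each group had 1 array, so no test was possible, no p-value is given, and higher and lower describe these 2 arrays. Values are deposited signals in arbitrary units. Signals under 20.4, the median of both arrays together, were raised to that floor before log2 ratios of IFNg over untreated were taken. Where 1 of the signals was raised, the ratio is a bound. A gene took the ratio of its chosen probe set, the one with the highest mean log2 signal. The only spread at hand is technical, an SD of 0.44 in log2 ratio between probe sets of the same gene over 4419 genes. Genes that answer IFNg differed widely between the arrays, with signals of 13.6 and 419.5 for Cd274 (PD-L1) and 319.1 and 3391.1 for the transcription factor Irf1. Of 17 RPE markers, 12 exceeded the floor in either culture, among them Otx2, Mitf, Tyr, Krt8 and Krt18. Of these 12, Pmel (22.2 and 3.3) and Lrat (7.4 and 22.4) did so narrowly, each on 1 array. The visual cycle genes Rpe65 and Rgr, the channel gene Best1, and Dct and Stra6 were at the floor on both.

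Matrix receptor genes as a group differed between the cultures about as much as genes in general. Of the 31 genes with a probe set, 25 had a signal over the floor in either culture, and 21 of those 25 lay within 2-fold. Over all genes, 11048 of 12743 measured ones lay within 2-fold. The collagen receptor Ddr2, the integrin beta chain Itgb8 and the collagen-binding alpha chain Itga1 had a signal at least 2-fold higher with IFNg, while that of the syndecan Sdc1 was at least 2-fold lower. These 3 higher genes are 12% of the measured members, against 8.82% of 12743 measured genes in all, and the 1 lower gene is 4% against 4.48%. At 1.5-fold, 5 members (20%) were higher against 17.9% of all genes, and 4 members (16%) were lower against 18.7%. Both shares lay near the background. The median log2 ratio of the members was -0.02 and that of all measured genes -0.12. After scaling to a common 75th percentile, or after quantile normalization, the split at 2-fold was 1 higher (Ddr2) and 1 lower (Sdc1), and after a loess correction it was 3 higher and 0 lower.

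**Figure D1:**
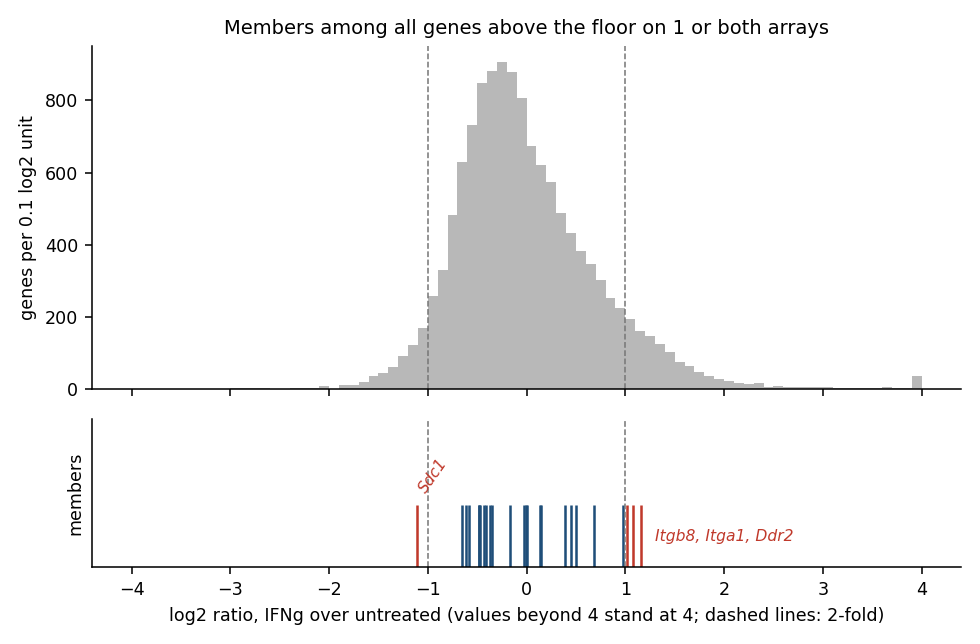
The upper panel shows the number of genes per 0.1 log2 unit of the IFNg over untreated ratio, over 12743 genes with a signal over the floor in either culture, with values beyond 4 drawn at 4. The lower panel has a tick for each of the 25 measured matrix receptor genes, and the 4 past 2-fold are named in red: Sdc1 on the left, and Itgb8, Itga1 and Ddr2 close to the dashed 2-fold line on the right.

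Counted by probe set, 64 of the 85 had a signal over the floor in either culture. Of these, 5 were at least 2-fold higher (7.81%, against 9.36% of all measured probe sets that name 1 gene) and 3 were at least 2-fold lower (4.69%, against 4.69%). The 5 higher probe sets belonged to Ddr2, Itgb8, Itga1, Itga6 and Gpc6, and the 3 lower ones to Sdc1, Itga5 and Ddr1. Of 15 members with more than 1 probe set above the floor on both arrays, 10 had ratios of a single sign. In Itga6, Itgb1 and Ddr2 these ratios were all above 0. In Itga3, Itga5, Sdc1, Dag1, Ddr1, Gpc4 and Cd151 they were all below 0. The other 5, Sdc2, Sdc3, Sdc4, Cd44 and Gpc6, had ratios of both signs. The same count was not made over all genes. By the chosen probe set, 44% of the measured members and 42.5% of all measured genes had ratios above 0.

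**Figure D2:**
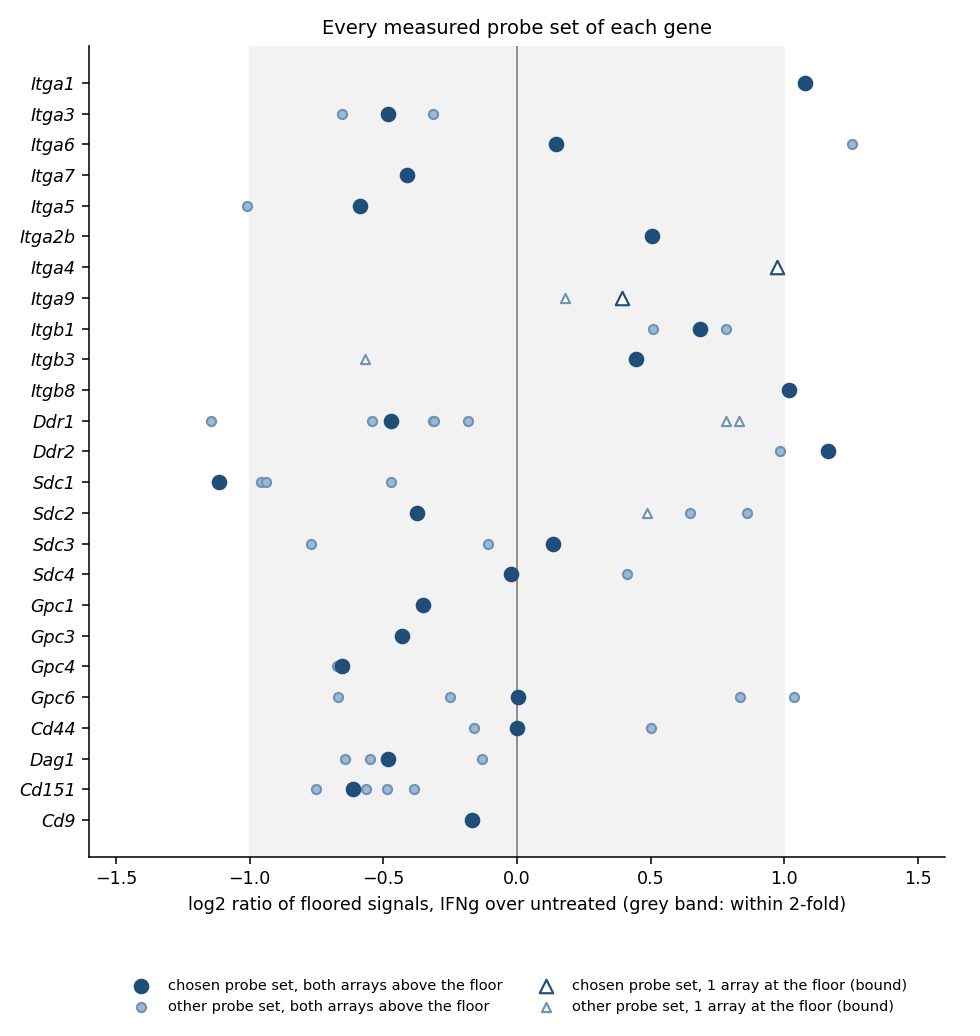
Each symbol is a measured probe set of a matrix receptor gene (rows), placed at its log2 ratio of IFNg over untreated, where large symbols are the chosen probe sets, triangles are bounds, and the grey band covers ratios within 2-fold. The 3 Itgb1 probe sets lie together between 0.51 and 0.78 and the 5 Cd151 probe sets between -0.75 and -0.39, while the 5 Gpc6 probe sets spread from -0.67 to 1.04.

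The 4 members past 2-fold are shown here by their promoter windows, beside 1 of 2 windows of Irf1, a gene that IFNg induces, chosen because it holds a match. Each window holds 300 bases, 250 before and 50 after a gene start in RefSeq (build GRCm38.p6), written 5′ to 3′ on the gene's strand. The printed Irf1 window lies at chr11:53769764-53770063 (plus strand) and the Ddr2 window at chr1:170088895-170089194 (minus strand). The Itgb8 window lies at chr12:119238227-119238526 (minus strand), the Itga1 window at chr13:115101915-115102214 (minus strand) and the Sdc1 window at chr12:8771146-8771445 (plus strand). Capitals mark matches to the gamma-activated site GAS (TTCNNNGAA), to the core of the interferon-stimulated response element ISRE (GAAANNGAAA) or to the GC box that Sp1 factors bind (GGGCGG), searched on both strands.
Irf1: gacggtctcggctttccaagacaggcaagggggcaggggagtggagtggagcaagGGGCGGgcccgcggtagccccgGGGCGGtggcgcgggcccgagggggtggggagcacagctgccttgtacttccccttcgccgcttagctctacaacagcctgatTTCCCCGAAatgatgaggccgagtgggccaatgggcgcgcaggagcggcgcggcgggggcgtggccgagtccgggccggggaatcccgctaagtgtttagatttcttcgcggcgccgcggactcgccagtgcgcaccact
Ddr2: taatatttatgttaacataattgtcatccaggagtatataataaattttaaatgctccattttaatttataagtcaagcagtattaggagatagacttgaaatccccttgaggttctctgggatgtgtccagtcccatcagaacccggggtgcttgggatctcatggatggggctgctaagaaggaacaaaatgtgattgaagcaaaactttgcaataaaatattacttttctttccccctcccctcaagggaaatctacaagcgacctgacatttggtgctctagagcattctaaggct
Itgb8: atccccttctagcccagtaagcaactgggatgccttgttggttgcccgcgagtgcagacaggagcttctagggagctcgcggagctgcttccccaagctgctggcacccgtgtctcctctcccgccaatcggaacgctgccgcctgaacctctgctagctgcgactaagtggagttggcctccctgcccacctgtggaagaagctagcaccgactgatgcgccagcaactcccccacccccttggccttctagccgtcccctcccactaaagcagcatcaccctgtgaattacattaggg
Itga1: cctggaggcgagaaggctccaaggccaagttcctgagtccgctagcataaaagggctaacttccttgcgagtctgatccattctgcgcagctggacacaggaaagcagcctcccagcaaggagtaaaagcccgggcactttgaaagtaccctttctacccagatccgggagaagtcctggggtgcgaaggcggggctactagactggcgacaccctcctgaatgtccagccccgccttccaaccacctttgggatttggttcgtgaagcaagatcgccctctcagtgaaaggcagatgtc
Sdc1: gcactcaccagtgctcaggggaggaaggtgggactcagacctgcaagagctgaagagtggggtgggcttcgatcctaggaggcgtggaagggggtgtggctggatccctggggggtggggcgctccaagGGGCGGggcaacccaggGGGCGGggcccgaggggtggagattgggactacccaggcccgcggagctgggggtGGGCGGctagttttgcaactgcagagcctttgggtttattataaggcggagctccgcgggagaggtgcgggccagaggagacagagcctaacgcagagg

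The printed Irf1 window held 1 GAS match, at bases 161 to 169, and 2 GC boxes. The other Irf1 window (chr11:53770223-53770522, plus strand) held no GAS match and 2 GC boxes. Sdc1 held 3 GC boxes and neither interferon element. The windows of Ddr2, Itgb8 and Itga1 held no match to any of the 3 motifs, which says only that these letters are not in these windows. The Ddr2 window was poor in G and C (39.0%, 2 CpG pairs), against a median of 52.7% and 7 CpG pairs over 32851 windows, and the Sdc1 window was rich (66.3%, 14 CpG pairs). Windows were found for 25 of the 32 members, 32 windows in all. A GAS match stood in 1 of these 32 windows (Itga10), an ISRE core in 2 (Itga3 and Itga2b) and a GC box in 19, which belong to 15 genes. Over all windows, 8.3% held a GAS match, 3.44% an ISRE core and 35.7% a GC box. Windows of the same gene can overlap and share a match. A match is a description of the sequence and no evidence of binding. The stretches around the 3 member matches are given with the match in capitals, at bases 62 to 70 of the Itga10 window (chr3:96645334-96645633, plus strand), bases 151 to 160 of an Itga3 window (chr11:95076665-95076964, minus strand) and bases 133 to 142 of the Itga2b window (chr11:102469834-102470133, minus strand).
Itga10: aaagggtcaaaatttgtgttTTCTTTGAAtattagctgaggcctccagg
Itga3: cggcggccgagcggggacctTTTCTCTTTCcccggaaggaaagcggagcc
Itga2b: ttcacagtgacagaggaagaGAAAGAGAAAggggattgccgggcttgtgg

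Integrin beta chains were measured in 3 of 6 genes, and all 3 chosen probe sets had a higher signal with IFNg. Itgb1 encodes the beta chain shared by the collagen, laminin and fibronectin receptors of most cells. Its chosen probe set had signals of 748.7 untreated and 1203.5 with IFNg, a 1.61-fold difference (log2 ratio 0.68). Further probe sets, at 450.8 and 776 and at 43.8 and 62.4, gave log2 ratios of 0.78 and 0.51, so all 3 had the same direction. The remaining 3 for Itgb1 gave only floor values.

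Itgb8 pairs with the alpha v chain, and this integrin binds and activates latent TGF-beta. Its single probe set had signals of 80.5 untreated and 163.1 with IFNg, a 2.03-fold difference (log2 ratio 1.02). The value stands at the threshold, and it was 0.94 after scaling to a common 75th percentile and 0.96 after quantile normalization. With the 75th percentile floor it was 0.91, and with a pseudocount of 16 it was 0.89. Itgb3, the partner of alpha v and of the platelet chain alpha IIb, was dim. Its chosen probe set had signals of 27.1 and 36.9 (log2 ratio 0.45), while a second one had 30.3 and 12.7, under the floor with IFNg (log2 ratio -0.57 or lower), so its 2 probe sets went opposite ways. Itgb4, the hemidesmosome chain that pairs with alpha 6, did not reach the floor in either culture (1.3 and 2.7). Nor did either probe set of Itgb6 (1.5 and 1.4, and 9.2 and 4), an epithelial partner of alpha v, or the lymphocyte chain Itgb7 (11.6 and 18.4).

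Integrin alpha chains that bind collagen were dim or at the floor. Itga1, the collagen receptor chain with a preference for collagen IV, had signals of 26 untreated and 54.9 with IFNg, a 2.11-fold difference (log2 ratio 1.08). Both signals are close to the floor, and adding a pseudocount of 16 to each signal instead of flooring gave a log2 ratio of 0.76. Its other probe set did not reach the floor (20 and 0.6). Itga2 (2.2 and 10.2) and Itga10 (14.6 and 12.8), further collagen-binding chains, were under the floor in both cultures.

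Laminin-binding alpha chains did not share a direction. Itga3, whose pair with beta 1 binds laminins of basement membranes, had signals of 533 and 381.2 (log2 ratio -0.48), and its other probe sets gave -0.31 and -0.66. Itga7, a laminin-binding chain best known from muscle, had 358.3 and 269.7 (log2 ratio -0.41) on its only probe set. Itga6 had 82.6 and 91.5 on its chosen probe set (log2 ratio 0.15), and a dimmer one had 24.1 untreated and 57.4 with IFNg (log2 ratio 1.25). Both Itga6 probe sets were higher with IFNg, but their ratios lay further apart than the technical SD.

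Itga5, the alpha chain of the main fibronectin receptor, was lower with IFNg by both probe sets above the floor. The chosen one had signals of 301.2 and 200.4 (log2 ratio -0.59), and the other had 108.5 and 53.8 (log2 ratio -1.01, a 2.02-fold difference). The ID of the chosen one marks sequence shared between transcripts, and without such probe sets Itga5 counts among the genes past 2-fold. Itga8, another chain of receptors for RGD motifs, did not reach the floor by either probe set (3.2 and 1.1, and 18.8 and 16.5). Itga2b, the alpha chain of the platelet fibrinogen receptor, had 65.8 and 93.3 (log2 ratio 0.50). Of 7 platelet and megakaryocyte markers with a probe set, 3 were above the floor on each array, with summed signals over the 7 of 161.9 untreated and 142.9 with IFNg, and Ppbp, Gp9 and Treml1 were at the floor on both. What part such cells have in the Itga2b signal was not tested.

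Itga4 and Itga9 are related chains that bind VCAM-1, fibronectin or tenascin, Itga4 being best known from leukocytes. Itga4 was under the floor untreated (13.5) and at 40 with IFNg, which gives a log2 ratio of at least 0.97, and the remaining 4 of this gene gave only floor values. Itga9 likewise stood at 10.1 and 26.8 (log2 ratio at least 0.39), and its second probe set at 7.1 and 23.1 gave at least 0.18. The remaining Itga9 probe set went the other way under the floor, at 15.4 and 5.3. These bounds depend on the floor, and when signals were floored at the 25th percentile instead, the ratios were 1.57 for Itga4 and 1.41 for Itga9. Of 15 leukocyte markers with a probe set, 10 were above the floor untreated and 7 with IFNg, with summed signals of 795.8 and 519.1 and a median log2 ratio of -0.76 over 10 genes. Past 2-fold lower were Csf1r (202.8 and 77.5), Fcer1g (46 and 10.6) and Laptm5 (40.9 and 8.7), while Cd52 (40.1 and 101.4) was past 2-fold higher. Thus 30% of the 10 measured markers were lower, against 4.48% of all genes, and 10% were higher, against 8.82%. Further probe sets lay within 2-fold, with log2 ratios of -0.56 and -0.28 for Csf1r and -0.55 and -0.19 for Laptm5. The defining T-cell genes Cd3e and Cd3g, the B-cell gene Cd79a and the NK-cell gene Ncr1 were at the floor on both arrays. What part leukocytes have in the Itga4 and Itga9 signals was not tested. In mixed cultures, fewer cells of a type and less RNA per cell cannot be told apart.

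The plot of signals by gene shows both cultures side by side within each row, and levels in different rows cannot be compared because probe sets differ in brightness.

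**Figure D3:**
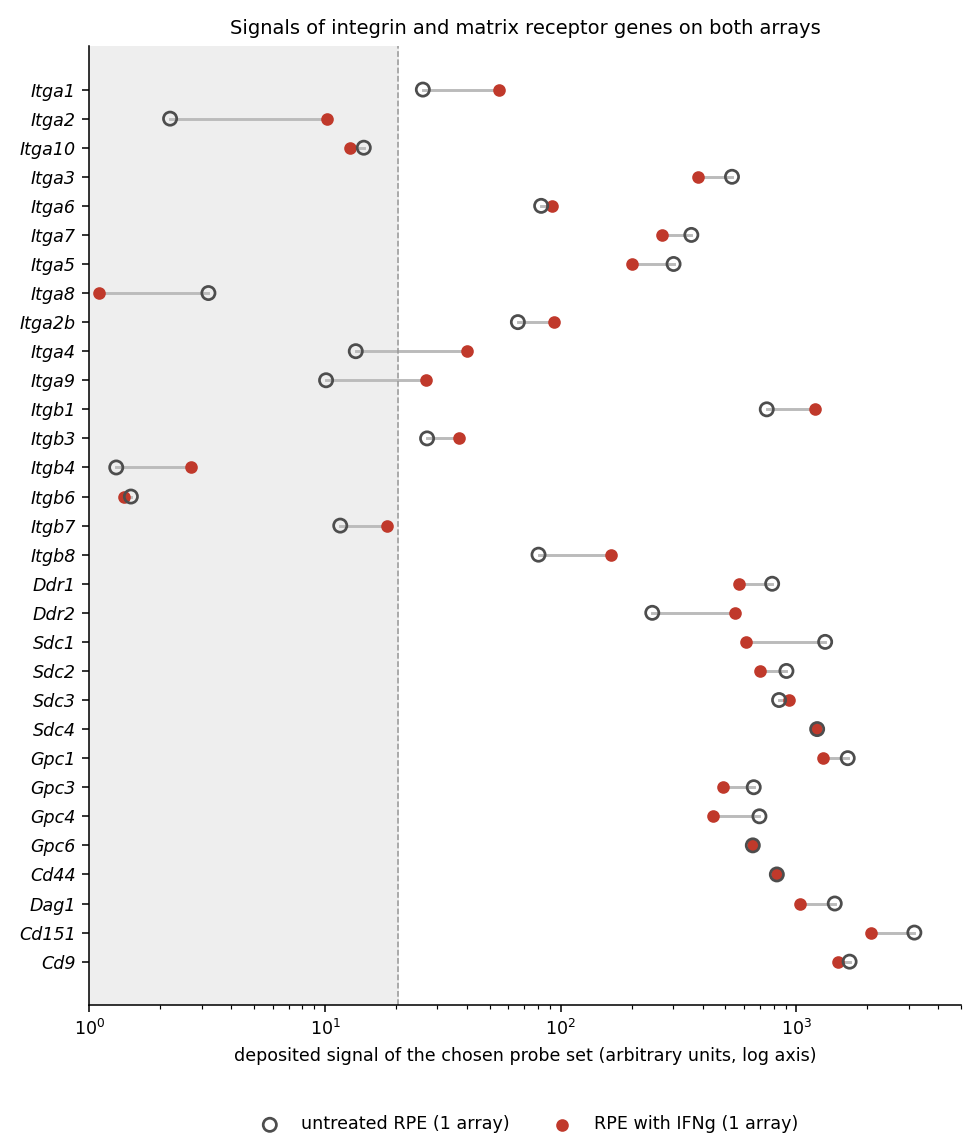
Deposited signals of the chosen probe set of each matrix receptor gene (rows), on a log axis in arbitrary units, with open circles for the untreated array, red points for the IFNg array and a grey area below the floor of 20.4. Ddr2, Itgb1 and Itgb8 have the red point on the right, Sdc1, Gpc4 and Cd151 have it on the left, and in Sdc4, Gpc6 and Cd44 the symbols coincide.

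Among integrin chains outside the 32 genes, none of 6 measured ones passed 2-fold, against 8.82% of all genes higher and 4.48% lower. With 75th percentile scaling, quantile normalization, loess or the 25th percentile floor, 1 was 2-fold lower. The median log2 ratio of these chains was -0.09. Over the alternatives this median ran from -0.47 (mean over probe sets) to 0.22 (pseudocount of 16). Itgb5, which pairs with alpha v in the RPE receptor for shed outer segments, had signals of 1945.9 and 1623.4 (log2 ratio -0.26). Itgav, the partner of Itgb8, had 1406.6 and 1786.2 (log2 ratio 0.34). Itgb2, the leukocyte beta chain, had 60.9 and 31.1 (log2 ratio -0.97), and its partners Itgal and Itgam were at the floor on both arrays. Itgax, a further partner, stood at 16.3 and 21.7, just over the floor with IFNg, and Itgad had no probe set. Itgb2l, a further beta chain, had 34 untreated and was under the floor with IFNg (2.2), a log2 ratio of -0.74 or lower.

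The discoidin domain receptors went opposite ways. Ddr2, a kinase that binds fibrillar collagen and is typical of mesenchymal cells, had signals of 244.6 untreated and 547.8 with IFNg, a 2.24-fold difference (log2 ratio 1.16). Its second probe set had 242.8 and 480.1, a 1.98-fold difference (log2 ratio 0.98). At the floor of 20.4 no other member had a higher ratio by its chosen probe set, but the values of Itga4 and Itga9 are lower bounds and exceed that of Ddr2 with the 25th percentile floor. Ddr2 passed 2-fold under each of the 9 alternatives in scaling, floor and probe-set choice, with log2 ratios from 1.07 to 1.27.

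Ddr1, the epithelial relative of Ddr2, had signals of 789.2 and 568.6 on its chosen probe set (log2 ratio -0.47). All 6 of its probe sets above the floor on both arrays had ratios below 0, from -1.14 to -0.19, and the lowest was dim, at 62.5 and 28.3. A pair of dim probe sets went the other way, at 16.3 and 36.3 (log2 ratio at least 0.83) and at 3.1 and 35.1 (log2 ratio at least 0.78). All 12 fibroblast and mesenchymal markers exceeded the floor in both cultures and none passed 2-fold (against 8.82% of all genes higher and 4.48% lower). Their summed signal was 48549 untreated and 46444.7 with IFNg and their median log2 ratio -0.06. The sum is carried by Col1a1, Col1a2 and Col3a1, and single markers went both ways, with log2 ratios of 0.77 for Lum, 0.74 for Fap, 0.63 for Dcn and 0.51 for Postn but -0.64 for Thy1 and -0.58 for Pdgfrb. What part such cells have in the Ddr2 difference was not tested.

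Syndecans were all measured, and Sdc1 was the one past 2-fold. Sdc1, the syndecan of epithelia, had signals of 1324.6 untreated and 611.8 with IFNg, a 2.17-fold difference (log2 ratio -1.11). Its other 3 probe sets had 336.5 and 173.3, 292.8 and 152.8, and 596.9 and 430.8. Their log2 ratios were -0.96, -0.94 and -0.47, so all 4 were lower with IFNg and 1 of them by 2-fold. With the mean over its probe sets the log2 ratio was -0.87, and after a loess correction it was -0.97, both just inside 2-fold.

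Sdc2, a syndecan of mesenchymal cells, gave ratios of both signs. Its chosen probe set had 907.4 and 701 (log2 ratio -0.37), while further bright ones had 514.3 and 932.9 (0.86) and 482.3 and 755.2 (0.65). Another one, at 0.4 and 28.6, gave at least 0.49. With the mean over all measured probe sets the Sdc2 log2 ratio was 0.41, so the sign follows the choice of probe set. Sdc3, first known from nerve tissue, had 844.4 and 927.6 on its chosen probe set (log2 ratio 0.14), and its others gave -0.11 and -0.77. Sdc4, a component of focal adhesions, had 1225 and 1207 (log2 ratio -0.02), and its other probe set had 335.6 and 446.5 (0.41).

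Glypicans, whose core proteins are tied to the membrane by a lipid anchor, lay within 2-fold in all 4 genes by the chosen probe sets. Gpc4 had signals of 697 and 442.3 (log2 ratio -0.66), and its second probe set, at 120.8 and 75.7, gave -0.67. Gpc3, a modulator of Wnt and Hedgehog signals, had 659.2 and 488.6 (log2 ratio -0.43). Gpc1 had 1651.4 and 1292.5 (log2 ratio -0.35). Gpc6 had 653.3 and 655 on its chosen probe set (log2 ratio 0.00), while its other 4 ranged from -0.67 to 1.04, and the highest of these was dim, at 23.3 and 47.8.

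Enzymes that build and trim heparan sulfate, the chain carried by syndecans and glypicans, were measured in 22 of 27 genes. None was 2-fold higher (against 8.82% of all genes) and 1 was 2-fold lower (4.55%, against 4.48%). The lower one was the linker enzyme B4galt7, with dim signals of 65.6 and 31.8 (log2 ratio -1.04). The ID of this probe set marks shared sequence, and the unmarked one, at 34.3 and 13.9, gave a log2 ratio of -0.75 or lower. The median over the 22 was -0.28 in log2 ratio, against -0.12 for all genes, and it was -0.04 without probe sets marked as shared and -0.01 with the 75th percentile floor. Sulf1, which removes sulfate groups from the chain, had 2271.8 and 2248.8 (log2 ratio -0.01).

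Cd44, the hyaluronan receptor, was level by its chosen probe set, at 826.2 and 825.7. Its other bright probe sets had 619.1 and 876.7 (log2 ratio 0.50) and 341.7 and 305.3 (-0.16). Dag1 encodes dystroglycan, a laminin receptor that is linked to dystrophin or utrophin inside the cell. Its chosen probe set had 1454.8 and 1040.3 (log2 ratio -0.48), and its other 3 gave -0.64, -0.55 and -0.13, all lower with IFNg.

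For the dystroglycan complex and its sugar chains, 12 genes were measured. None was 2-fold higher (against 8.82% of all genes) and 1 was 2-fold lower (8.33%, against 4.48%). The lower one was Pomt1, which starts the O-mannose chain on dystroglycan, at 2.06-fold, with signals of 120.5 and 58.4. Utrn, the gene for utrophin, had 152.3 and 300.1 (log2 ratio 0.98), and Sspn, for sarcospan, had 532 and 442.8 (-0.27). The median over these genes was -0.04. Among 9 further measured matrix receptors none passed 2-fold, against 8.82% of all genes higher and 4.48% lower. Of these 9, 4 had ratios above 0 and 5 below, with a median of -0.23. Cd47 (1460.7 and 2790.5, log2 ratio 0.93) and Hmmr (44.7 and 86.4, 0.95) were the highest. Bcam (228.4 and 135.8, -0.75) and Mrc2 (812.2 and 516.7, -0.65) were the lowest. With loess, or without probe sets marked as shared, 1 gene was 2-fold higher. With a lower floor, or with a pseudocount, 1 was 2-fold lower. The median was 0.03 without shared probe sets. Rpsa, which encodes a ribosomal protein also described as a laminin receptor, had 7896.6 and 6754.1 (-0.23).

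Both tetraspanins had lower signals with IFNg and lay within 2-fold. Cd151, a partner of the laminin-binding integrins, had 3167.1 and 2070.6 on its chosen probe set, a 1.53-fold difference (log2 ratio -0.61). Its other 4 probe sets above the floor on both arrays gave -0.75, -0.57, -0.49 and -0.39. Of these 5, 3 have IDs that mark shared sequence, and the bright one without the mark, at 1155.9 and 686, gave the lowest ratio. Cd9, a tetraspanin that associates with beta 1 integrins, had 1682 and 1495.4 (log2 ratio -0.17) on its only probe set.

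Among 21 measured tetraspanins outside the 32 genes and their partners, 4 were at least 2-fold lower (19.05%, against 4.48% of all genes) and none was 2-fold higher (against 8.82%). Tspan10, which is expressed in pigment cells, had 69.9 untreated and was under the floor with IFNg (15.9), at least 3.43-fold lower. Tspan18 had 125.1 and 44.6 (2.81-fold lower), but its other measured probe sets gave 0.09 and at least 0.43. Tspan11 had 196.5 and 86.3 (2.28-fold lower), with 3 further probe sets lower as well. Tspan14 had 226.8 and 106.2 (2.14-fold lower) on a probe set whose ID marks shared sequence. Cd81, a widely expressed member, had 5331.8 and 4246.5 (log2 ratio -0.33). The median of the list was -0.33. The count of 4 lower genes was 2 with the 75th percentile floor, and 3 with a pseudocount of 16 or without probe sets marked as shared.

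Inside the cell, integrin tails bind talin, kindlins and other adaptors that link them to actin and to kinases. Of 32 measured adaptor and focal adhesion genes, none was 2-fold higher (against 8.82% of all genes) and 1 was 2-fold lower (3.12%, against 4.48%). The lower one was Parvb, which binds integrin-linked kinase, with signals of 84.9 and 32.4 (2.62-fold). These adaptors had a median log2 ratio of -0.37, against -0.12 for all genes and -0.02 for the receptors. The gap to the receptors depends on the floor, and with the 75th percentile floor both medians were -0.35. Actn1, an actin cross-linker, had 3045.5 and 2439.8 (log2 ratio -0.32). Laminins, basement membrane proteins and other integrin ligands were measured in 29 genes. Of these, 1 was 2-fold higher (3.45%, against 8.82% of all genes) and none 2-fold lower (against 4.48%). The higher one was Vcam1, a ligand of alpha 4 beta 1, with 853.3 and 2496.6 (2.92-fold) and further probe sets at log2 ratios of 1.19 and 0.92. Col3a1, a fibrillar collagen, had 12807.6 and 11389 (-0.17), and the list's median was -0.44.

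**Figure D4:**
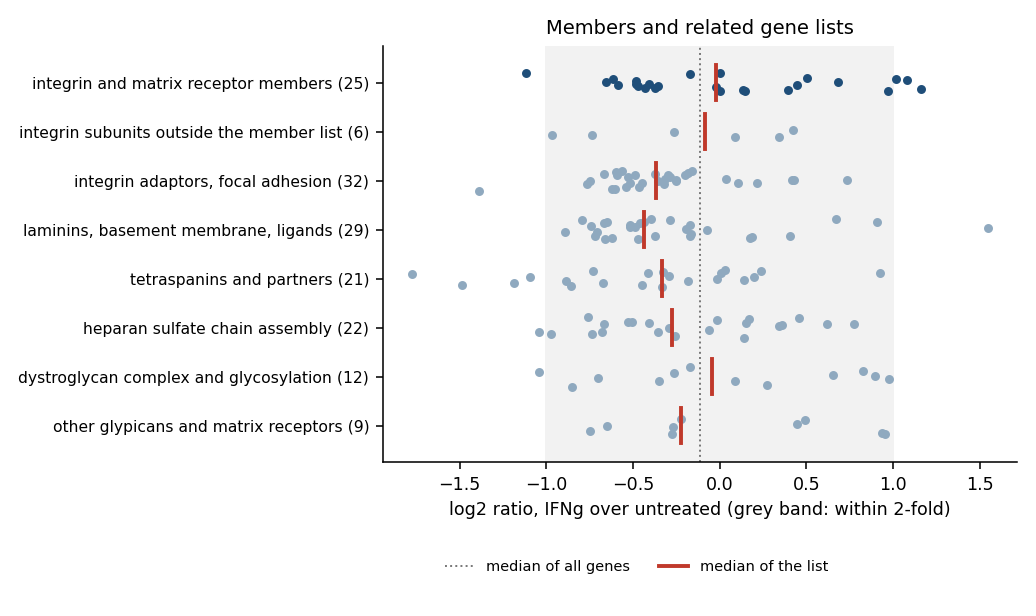
Log2 ratios of IFNg over untreated for the 25 measured matrix receptor genes (top row) and for the measured genes of 7 related lists, with the number of genes in brackets. Red bars are list medians, the dotted line is the median of all genes at -0.12, and the vertical scatter within a row has no meaning. The receptors' median lies at -0.02 and those of the adaptor and ligand lists at -0.37 and -0.44, but with the 75th percentile floor the first 2 were both -0.35 and the ligands' median -0.44.

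Markers of other cells that the cultures could hold were measured on the same arrays. Endothelial markers had a median log2 ratio of -0.43 over 8 genes, and none passed 2-fold (against 8.82% of all genes higher and 4.48% lower). Their summed signals were 683.4 untreated and 507.4 with IFNg. Emcn (406 and 307.7) was the brightest of them, followed by Cldn5 (73.8 and 44), while Tie1 and Vwf were at the floor on both arrays. Schwann and melanocyte lineage markers had a median of -0.49 over 4 genes. Smooth muscle and pericyte markers had a median of -0.20 over 7 genes. Of these, Cnn1 and Cspg4 were past 2-fold lower (28.57%, against 4.48% of all genes) and none higher (against 8.82%). A second Cspg4 probe set gave -0.30. The brightest of these markers lay within 2-fold, namely Acta2 (13960.3 and 11075.8), Tagln (5781 and 5026.9) and Rgs5 (967 and 1290.5). Photoreceptor and neural retina markers had a median of -0.41 over 5 genes. Of these, Tubb3 was past 2-fold higher (20%, against 8.82% of all genes) and Rom1 lower (20%, against 4.48%). The RPE markers had a median of -0.21, with 4 of 12 at least 2-fold lower (Rlbp1, Tyrp1, Ttr and Rdh5, 33.33% against 4.48% of all genes). Rdh5 had 468.9 and 202.7, but Rlbp1 (73.2 and 35.1), Tyrp1 (53.1 and 21.7) and Ttr (89.4 and 29.4) were dim. Further Tyrp1 probe sets gave log2 ratios of -1.45 or lower and of at least 0.33. Those of Ttr gave bounds from -1.19 to -0.55. The summed signals of the RPE markers were 4141.9 and 4400.1, and the higher sum rests on the keratin Krt18, with 1390.4 and 2445.9. What part the cell mixture has in the receptor values was not tested.

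**Figure D5:**
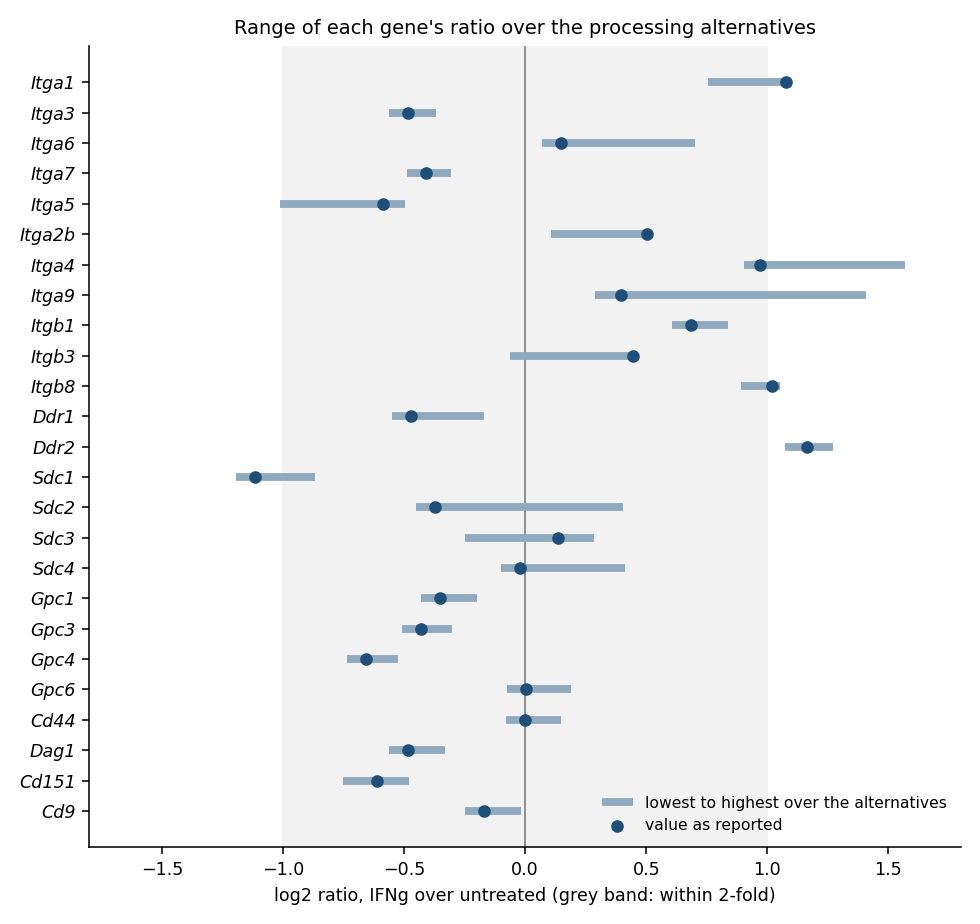
For each measured matrix receptor gene (rows), the point is the log2 ratio of IFNg over untreated as reported and the bar runs from the lowest to the highest value over up to 9 alternatives in scaling, floor and choice of probe set. Ddr2 stays beyond the 2-fold line, at 1.07 to 1.27, and the bars of Sdc2, Sdc3, Sdc4, Itgb3, Gpc6 and Cd44 cross 0.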

How the data were processed

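Total RNA of both cultures was amplified, labelled with biotin and hybridised, 1 array per culture, per the labels' protocols. The authors deposited a linear intensity per probe set of an Affymetrix mouse array, between 0.1 and 14895.6 with medians of 20.1 (untreated) and 20.8 (IFNg). Both deposited arrays had a mean of 100.001 after trimming 2% at each end. The sources used here name neither the summarisation software nor detection calls, so the centring and scaling steps behind these values are unknown.

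Of 45101 probe sets, 64 controls were left out. Both arrays were set to the same trimmed mean, low signals were raised to the pooled median, and log2 ratios followed. Gene names came from the platform annotation, in which 34945 probe sets name 1 gene, 932 several and 9160 none, and only the first kind was used. No test was possible with single arrays, and 2-fold was counted where the brighter array was above the floor. Every member was described, and from each related list the genes past 2-fold (up to 6 per direction) and the brightest one within it. Itgav, Itgb2 and its partners, Itgb2l, Utrn, Hmmr, Cd47, Bcam, Mrc2 and the named markers were added after their values were seen. The members and lists were chosen with earlier results of these data known. Precision is limited by the number of arrays. The steps were tested on simulated data, with differences well past 2-fold set in bright genes. Differences near 2-fold, or in dim genes, were not part of that simulation. Promoter windows came from RefSeq. Analyses used Python 3.11.15, numpy 2.4.6, pandas 2.3.3, statsmodels 0.14.6 and matplotlib 3.10.9.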

Additional observations from a re-analysis of the deposited data

How the results depend on the processing

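Of 220 values of single receptor genes under 9 alternatives, 215 moved by less than the technical SD of 0.44, 5 moved by more and none past 2-fold changed sign. The 5 were Itga4 (1.57) and Itga9 (1.41) with the floor at the 25th percentile, and Itga6 (0.70), Itgb3 (-0.06) and Sdc2 (0.41) with the mean over probe sets. The count of 3 genes at least 2-fold higher was 1 with a common 75th percentile, quantile normalization, the 75th percentile floor or a pseudocount of 16, and 5 with the 25th percentile floor. The count of 1 lower gene was 0 with loess or the mean over probe sets and 2 without probe sets marked as shared (Sdc1 and Itga5). At 1.5-fold the counts were 5 higher and 4 lower, and at 3-fold 0 and 0. The median log2 ratio was 0.13 with loess and -0.35 with the 75th percentile floor, which leaves 21 members, against -0.07 and -0.13 for all genes. Of probe sets, 5 higher became 2 (75th percentile scaling, quantile), 14 (25th percentile floor), 1 (75th percentile floor), 3 (pseudocount), 14 (1.5-fold) and 0 (3-fold). The 3 lower became 5 (75th percentile scaling), 7 (25th percentile floor), 1 (75th percentile floor), 1 (pseudocount), 14 (1.5-fold) and 0 (3-fold). The cause of these shifts was not tested. Of 189 counts and medians of the related lists, 147 stayed close and 42 moved. How much background a dim signal holds is unknown, so ratios of Itga1, Itga4, Itga9 and Itgb3 are uncertain in size. No paired analysis was possible because each group has 1 array.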
